A study of Drosophila melanogaster with 3 samples.

Results

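Auxilin (aux) carried the second strongest peak of a chromatin-binding protein, CG15514, in Drosophila melanogaster embryos, and the peak lay at an internal start site of the gene. Here aux is described together with 9 other genes of clathrin-mediated endocytosis: Chc, Clc, lap, AP-2alpha, AP-2mu, AP-2sigma, EndoA, shi and Synj. The 10 genes, of 13945 protein-coding genes in the annotation, were named one by one for their part in the clathrin pathway, and aux was chosen by its measured signal, the second highest in the list. That signal and its rank are therefore given as descriptions, and no test was made on the members. For each gene, every summit within the gene body or 2 kb of it was collected, which gave 21 of the 8708 summits of the authors' thresholded peak list on genome build dm6.

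The protein was mapped by ChIP-seq, in which an antibody recovers a protein together with the DNA it sits on. The transgenic flies stably made CG15514 with the fluorescent protein eGFP joined to its C-terminus as a tag, and the antibody was directed against GFP. All 3 samples were biological replicates of whole embryos of mixed sex, collected from 0 to 24 hours, and formed 1 group with no second condition. The promoter that drives the tagged gene is not given in the sources used here. Whole embryos mix cell types and stages of that period.

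Clathrin-mediated endocytosis takes pieces of the plasma membrane and their cargo into the cell. Adaptor proteins gather cargo at the membrane and recruit clathrin, whose heavy and light chains assemble into a cage around the budding pit. Membrane-bending proteins and the GTPase dynamin then cut the vesicle free, and auxilin and synaptojanin help to strip the coat so that its parts can be used again. The pathway is best known in the fly from nerve terminals, where it recycles synaptic vesicles, and it operates in most cells of the embryo.

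The DNA just before the start sites of 5 members is shown first, because the signal of the peak differed so much between them. The sequences come from the Release 6 genome, the assembly that dm6 names, and run 5′ to 3′ along the strand of the gene. Capitals mark exact matches, on either strand, to the motifs named further on, of which TATCGATA (the DRE), CGATA and ATCGAT overlap one another. The internal start site of aux is preceded by chr3R:4220836-4220985 and its distal start site by chr3R:4211633-4211782, both on the plus strand. The others are EndoA (chr3R:18906459-18906611, plus, the last 3 bases past the start site), shi (chrX:15891966-15892115, plus), AP-2sigma (chr3R:21270076-21270125, minus, cut short at the neighbouring gene) and lap (chr3R:7186844-7186993, plus), which had no peak.
aux internal start site: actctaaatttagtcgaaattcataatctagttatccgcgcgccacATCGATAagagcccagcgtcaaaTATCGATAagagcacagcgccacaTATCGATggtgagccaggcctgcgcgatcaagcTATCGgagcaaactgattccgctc
aux distal start site: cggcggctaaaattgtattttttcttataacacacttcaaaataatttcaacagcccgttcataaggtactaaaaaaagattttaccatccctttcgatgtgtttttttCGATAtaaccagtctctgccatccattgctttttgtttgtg
EndoA start site: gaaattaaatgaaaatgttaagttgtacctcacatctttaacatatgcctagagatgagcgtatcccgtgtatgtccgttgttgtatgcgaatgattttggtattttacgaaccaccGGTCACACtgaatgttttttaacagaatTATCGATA
shi first start site: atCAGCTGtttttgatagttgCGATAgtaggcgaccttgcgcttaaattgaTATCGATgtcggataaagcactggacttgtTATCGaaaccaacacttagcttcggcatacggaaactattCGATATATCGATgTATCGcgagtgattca
AP-2sigma start site: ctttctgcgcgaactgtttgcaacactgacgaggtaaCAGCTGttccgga
lap start site: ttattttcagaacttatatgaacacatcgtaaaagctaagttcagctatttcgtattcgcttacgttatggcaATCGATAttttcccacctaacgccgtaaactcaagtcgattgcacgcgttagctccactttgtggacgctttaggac

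Among the 10 genes, 8 had a summit within 500 bp of one of their own annotated start sites (a promoter summit), against 42.9% of all protein-coding genes. The 2 without one were lap and AP-2mu. With the gene body and 2 kb on either side, 9 of the 10 had a summit, against 59.1% of all protein-coding genes. Because the list was chosen with earlier results known, nothing is read from these counts. The strongest promoter signals of the 8 genes spread over a 510-fold range. The signal is the value that the authors' peak caller gave to each peak, and it has no scale between lists. In the thresholded list it ran from 70620 down to 118.9, with a median of 236.4. The members' strongest promoter summits had signals of 64036 at aux, 16607 at Clc, 2047 at AP-2sigma, 573 at AP-2alpha, 317 at EndoA, 282 at shi, 210.4 at Chc and 125.5 at Synj. A signal of 2000 or more was reached by 3 of the 10 members and by 380 of the 13945 protein-coding genes, or 2.72%. The 3 include aux, which was chosen by this signal, and AP-2sigma, at 2047, was just above the cutoff. Nothing is read from this count either. The median over the 8 members with a promoter summit was 445.2, beside 314.6 over the protein-coding genes that had one. With genes without one counted as 0, the median over the 10 members was 299.8, and that over all protein-coding genes was 0. The members held 1 gene at the top of the list, 2 more at ranks of 115 and 306, 3 between rank 1173 and the median of the list, and 2 below that median, of which Synj was near the bottom, as the plot of signal against rank shows.

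**Figure D1:**
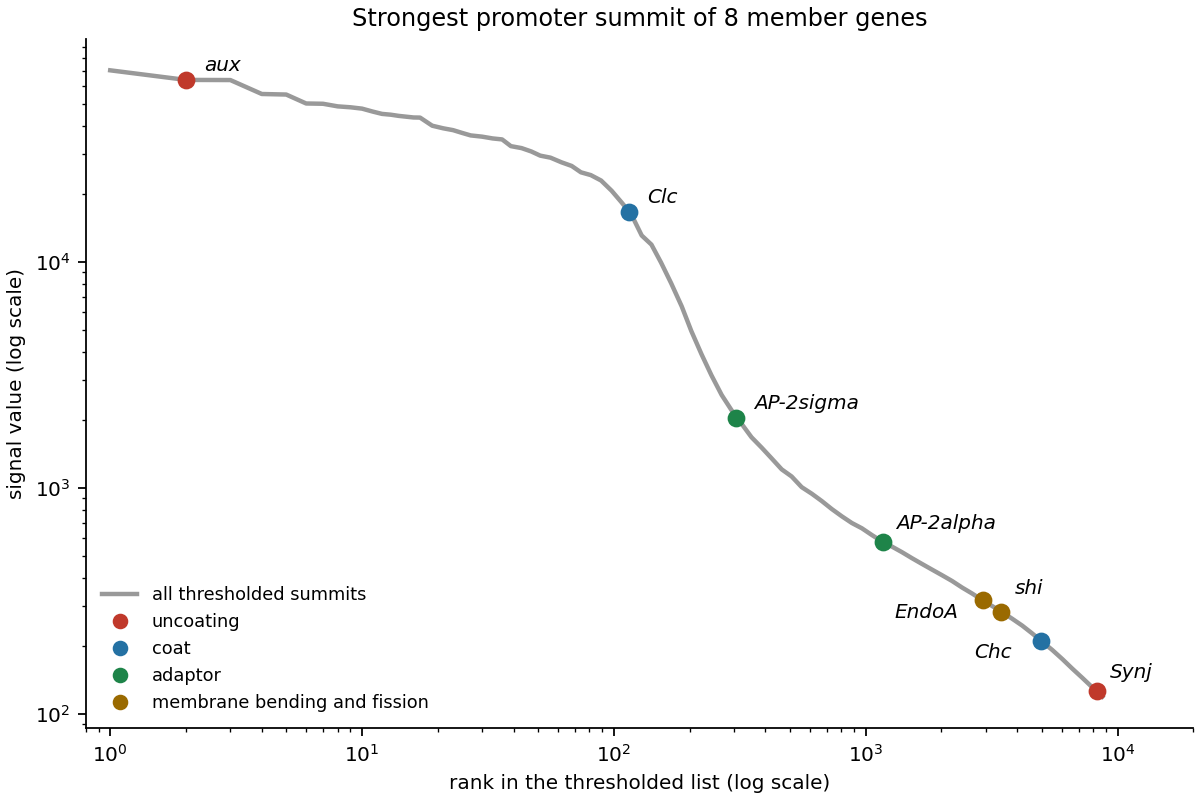
The strongest promoter summit of each of 8 member genes (points, coloured by role) is set on the curve of signal value against rank for the thresholded list, with both axes logarithmic. aux sits at rank 2 and Clc at rank 115 on the steep upper part, and 5 genes lie at ranks from 1173 to 8270 on the long lower part.

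The aux gene (FBgn0037218, chr3R:4211783-4227518, plus strand) encodes auxilin, the co-chaperone that brings Hsc70 to clathrin-coated vesicles to take the coat apart. It has 4 annotated transcripts from 2 start sites that are 9203 bp apart. The distal start site, used by 1 transcript, lies inside CG14636, a gene of the opposite strand, and the internal one is used by 3 transcripts. Both kinds of transcript share a coding start, which lies 157 bp past the internal start site and 9360 bp past the distal one.

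The summit at the internal start site lay at position 4220961 of 3R, 25 bp upstream of it, in an interval from 4220438 to 4221524. Its signal of 64036 was 271 times the median of the thresholded list. The peak had ranks of 3, 2 and 2 in the lists of replicates 1, 2 and 3, where its signals were 17350, 14309 and 32454. All 3 replicates thus placed it among their 3 strongest entries, and their summits differed from the thresholded one by at most 4 bp. To set replicates side by side, each signal was divided by the median of the 8708 strongest entries of its own list, which gave a relative signal of 270.0 ± 36.2 (SD, n = 3). No start site of another gene lay within 500 bp of the summit. The distal start site had no summit within 500 bp, and its nearest was 2469 bp away.

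A further 3 weaker summits lay elsewhere in the aux window. A summit of signal 376.5 (rank 2290) lay in an intron 4054 bp past the distal start site, and its replicate signals were 91.2, 83.8 and 193. Its position, 4215837, was also upstream of CG14636, whose body on the opposite strand begins at 4215314, beyond the 500 bp limit. From position alone this summit cannot be assigned to aux rather than CG14636. A second intronic summit, of signal 228.7 (rank 4530), lay 2469 bp past the distal start site and also inside CG14636, with replicate signals of 64.5, 64.1 and 105.5. Both were found in all 3 replicates, with ranks between 2210 and 5572. The last one, of signal 320.0 (rank 2883), lay downstream of aux, 96 bp from the start site of DhpD, and cannot be assigned to aux from its position. Another 6 entries of the pooled list in the window fell below the threshold, the strongest at a signal of 105.1 and rank 9737. None of these 6 lay at a start site of aux.

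**Figure D2:**
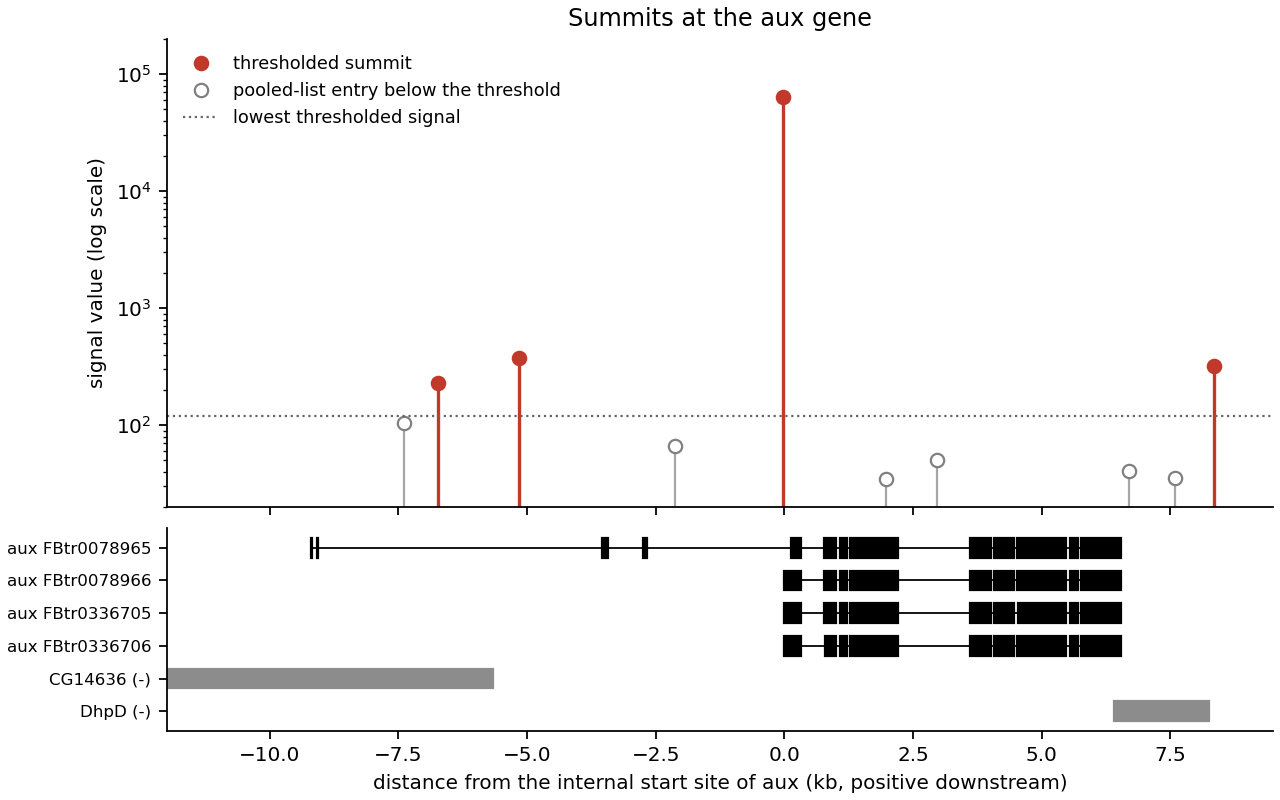
Signal values (log scale) of thresholded summits (filled) and of weaker entries of the pooled list (open) are plotted against the distance in kb from the internal start site of aux, above the exons of its 4 transcripts and the bodies of 2 neighbouring genes. The summit at 0 kb stands at 64036, and the other thresholded summits lie between 228.7 and 376.5.

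By the closeness of their ranks in the 3 replicates, the peaks most like that of aux were those of CG11454 and CG31974, of CG10366 and PCNA2, of CG12091 and pns, and of Rilpl. The likeness was the sum of the absolute differences of log10 rank over 3 replicates, and it came to between 0.778 and 0.921. These peaks ranked 1, 4, 3 and 5 in the thresholded list. The measure thus returned the other peaks of the top 5, and it says nothing of function.

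Synj, for synaptojanin, the phosphatase that removes phosphoinositides from the vesicle so that adaptors let go, is the other uncoating gene (FBgn0034691, chr2R:22080176-22085767, plus strand). Its promoter summit lay 30 bp upstream of the first of 3 start sites, with a signal of 125.5 and a rank of 8270. It was the weakest of the strongest promoter summits among the members. Only replicate 1 had an entry within 100 bp, with a signal of 43.2 and rank 5756. In replicates 2 and 3 the nearest entries lay 147 and 151 bp away, with signals of 34.8 and 40.6. The aux and Synj promoters, of 2 genes that act at the same step, thus lay at opposite ends of the list.

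The coat is built from the clathrin light chain, Clc, and the heavy chain, Chc. Clc (FBgn0024814, chr3L:20241053-20243735, plus strand) had 3 summits within 1 interval, from 20240945 to 20243052 on 3L. An interval with 3 or more summits occurred 9 times among the 8615 thresholded intervals. The strongest Clc summit lay 15 bp upstream of its last start site, with a signal of 16607 (rank 115) and replicate signals of 4692, 3670 and 8362. It had no other gene's start site within 500 bp. The second lay 2 bp past the second start site, with a signal of 12090 (rank 139) and replicate signals of 3322, 2624 and 5947. That start site is shared with CG6951, and CG17233 starts 47 bp from the summit on the other strand. The weakest lay 209 bp past the second start site, with a signal of 3817 (rank 225), and its replicate signals were 1170, 685 and 1560. The start sites of CG17233 and CG6951 lay 131 and 209 bp from it. All 3 Clc summits also lay inside the body of CG6951, on the same strand as Clc. The first Clc start site had no summit within 500 bp, the nearest being 512 bp away. Relative signals were 70.8 ± 11.7, 50.4 ± 8.11 and 15 ± 5.24 (SD, n = 3 each), and their order was the same in each replicate. All 4 Clc transcripts share 1 coding start.

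The 2 summits at Clc start sites lay 12 and 11 bp from a match to a short motif that was common at the highest peaks, GAACCAG or GAACTAG. The stretches that hold them are shown with the motif, or its reverse complement, in capitals, at chr3L:20241566-20241595 and chr3L:20242491-20242520, plus strand, the second with a CGATA match beside it. A further match lay at chr3R:21269125-21269154, minus strand, before the Rab1 gene next to AP-2sigma.
Clc second start site: tcatcggttcaCTAGTTCgcgcgccgagtg
Clc last start site: ctgttcggctgGAACCAGttCGATAgcccg
Rab1 start site: atattttcttctCTGGTTCcgcccactcac

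Chc (FBgn0000319, chrX:15827986-15835490, minus strand) had far lower summits than Clc. The first lay 57 bp upstream of the start site that 6 of its 7 transcripts use, with a signal of 210.4 (rank 4964). Its replicate signals were 61.6, 33.5 and 109.7, and its relative signal was 0.844 ± 0.261 (SD, n = 3). A non-coding gene, lncRNA:CR32582, starts 54 bp from this summit. The second lay 29 bp upstream of the other start site, with a signal of 119.1, and at rank 8698 it was among the last entries of the list. Replicate 1 had no entry within 100 bp of it, and replicates 2 and 3 had signals of 44.1 and 53.6. The strongest Clc summit exceeded the strongest Chc summit in every replicate, with relative signals of 70.8 ± 11.7 against 0.844 ± 0.261. These are signals at the promoters of genes for 2 chains of the same coat, and the difference was not tested. The second Chc summit, of signal 119.1, was the last of the members inside the threshold. The strongest member entry outside the threshold was the one of 105.1 in aux.

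The AP-2 adaptor, which links clathrin to cargo and to the membrane, has 4 subunits, of which the alpha, mu and sigma chains are members here. AP-2sigma (FBgn0043012, chr3R:21269209-21270075, minus strand) had the strongest own summit of these, 9 bp upstream of its only start site. Its signal was 2047 (rank 306), its replicate signals were 571, 464 and 1011, and its relative signal was 8.7 ± 1.36 (SD, n = 3). The start site of Idi lay 42 bp from that summit, so the 2 genes share it. A stronger summit in the window, of signal 5074 (rank 200), lay just past the end of AP-2sigma and 56 bp from the start site of Rab1, a GTPase of traffic from the endoplasmic reticulum to the Golgi. Its ranks in the replicates were 200, 201 and 201. A summit of signal 216.7, lay 1353 bp upstream, in a 3′ UTR within the body of CG3308.

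AP-2alpha, the chain that binds membrane phosphoinositides (FBgn0264855, chr2L:408030-414777, minus strand) was the only member with more than 1 coding start. Its strongest summit lay 49 bp upstream of its first start site, with a signal of 573 (rank 1173), replicate signals of 115.9, 104.0 and 334.9, and a relative signal of 2.15 ± 0.378 (SD, n = 3). The start site of ebi lay 241 bp from this summit. A second summit of signal 269.5 lay 252 bp upstream, 38 bp from the start site of ebi, and its replicate ranks ran from 2417 to 7240. Another, of signal 127.9 (rank 8123), lay 225 bp upstream of the second start site, whose transcript has its own coding start. Outside the window, 3901 bp from the gene, was a far stronger summit at Polr1B with a signal of 48903 and rank 8.

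AP-2mu (FBgn0263351, chr3R:22462455-22464603, plus strand), whose product binds cargo tails, had no promoter summit. Its only summit in the window, of signal 207.9 (rank 5030), lay past its 3′ end and 148 bp from the start site of CG7054. In the pooled list an entry of signal 45.6 (rank 22284), below the threshold, lay 345 bp upstream of its start site and 56 bp from that of Rpn7. Replicates 1 and 2 had entries 340 and 337 bp from the AP-2mu start site with signals of 30.2 and 15.1. They had further entries 33 and 45 bp from it with signals of 17.6 and 12.3, and replicate 3 had none within 500 bp.

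lap (FBgn0086372, chr3R:7186994-7200941, plus strand), the fly homologue of the clathrin assembly protein AP180, had no summit in its window and no entry in the pooled list there, although 9 transcripts start at its single start site. Replicate 1 listed an entry 1 bp from the start site, with a signal of 44.1 and rank 5624. Replicate 2 listed one 87 bp away, with a signal of 21.7 and rank 12864, and replicate 3 listed none. The nearest thresholded summit lay 16435 bp from the gene. The adaptor genes thus ran from a summit in the upper ranks at AP-2sigma to none at AP-2mu and lap.

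EndoA, for endophilin A, a BAR-domain protein that curves the membrane, had 1 summit, 67 bp upstream of its start site (FBgn0038659, chr3R:18906609-18910755 for the gene, plus strand). Its signal was 317 (rank 2931), with replicate signals of 84.4, 75.2 and 164.6 and a relative signal of 1.36 ± 0.136 (SD, n = 3). It was found in every replicate at ranks from 2485 to 3181. The gene shi (FBgn0003392, chrX:15892116-15906716, plus strand) encodes dynamin, whose temperature-sensitive alleles paralyse flies. Its promoter summit lay 7 bp upstream of the first of 3 start sites, with a signal of 282 (rank 3459). Replicates 2 and 3 had it with signals of 50.5 and 169.3, but replicate 1 had no entry within 100 bp and its nearest was 1669 bp away. The second start site, which 11 of its 15 transcripts use, lay 91 bp from the same summit, and the third had none within 500 bp. Another 2 summits in the window, at ranks 5739 and 6965, lay at the start sites of MSBP and CG15916. A strong summit at CycD, of signal 12139, lay 3019 bp from shi and outside the window.

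Across the members, 13 of the 21 summits lay within 500 bp of an own start site. Of these, 11 lay upstream of the nearest own start site and 2 downstream, at distances from 2 to 252 bp with a median of 30 bp, and 10 lay within 100 bp. The start site of another gene lay within 500 bp of 6 of the 13, so these cannot be given to 1 gene by position. The same shares over all 8708 summits are not given for these placements, so nothing in them is read as particular to the members. Of the 19 start sites of the 10 genes, 13 had a summit within 500 bp, against 39.9% of the start sites of all protein-coding genes. Of the members, 6 had a promoter summit and start sites over 500 bp apart. In aux and Clc the strongest summit was away from the most 5′ start site, and in AP-2alpha, Chc, Synj and shi it was within 500 bp of it. Away from it was thus the case in 2 of 6 members, against 32.9% of the 1347 protein-coding genes of this kind, so a strongest summit away from the most 5′ start site is no particular feature of aux and Clc.

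**Figure D3:**
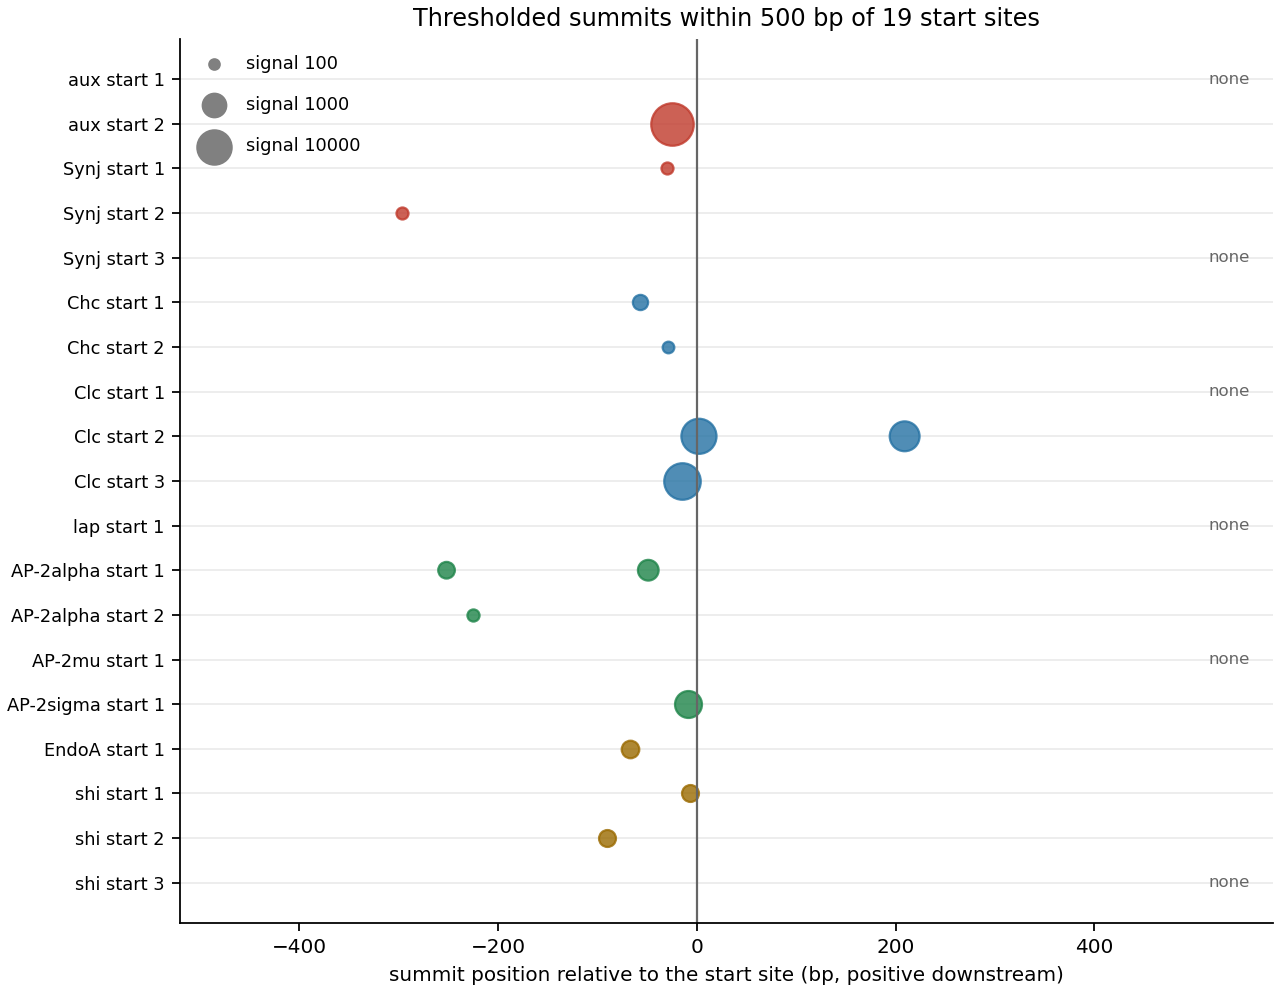
Each row is 1 of the 19 annotated start sites of the 10 genes, in order from the most 5′, and each point is a thresholded summit within 500 bp of it, at its distance in bp and with an area that grows with the log of its signal. The 3 largest points lie within 25 bp of the internal start site of aux and of the second and last start sites of Clc, and 6 rows have none.

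The replicates ranked the strong member summits alike and the weak ones less so. All 6 summits with a signal of 2000 or more were matched within 100 bp in the 3 replicates, and the highest and lowest ranks of 1 summit differed by at most 1.5 times. Of the 15 weaker ones, 12 were matched in all 3, and the ranks of 1 summit differed by up to 3.25 times. The summit positions shifted by at most 13 bp in the first set and by up to 68 bp in the second. In all, 18 of the 21 were matched in every replicate, and 15 of the 21 were among the 8708 strongest entries of each. The same values over all 8708 thresholded summits are not given, so none of this is read as particular to the members. The 3 member summits that were not matched everywhere were those of Synj, of shi at its first start site and of Chc at its second. Their replicate signals are deposited without read counts, so the depth of each library is unknown and its part in the missing entries was not tested.

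**Figure D4:**
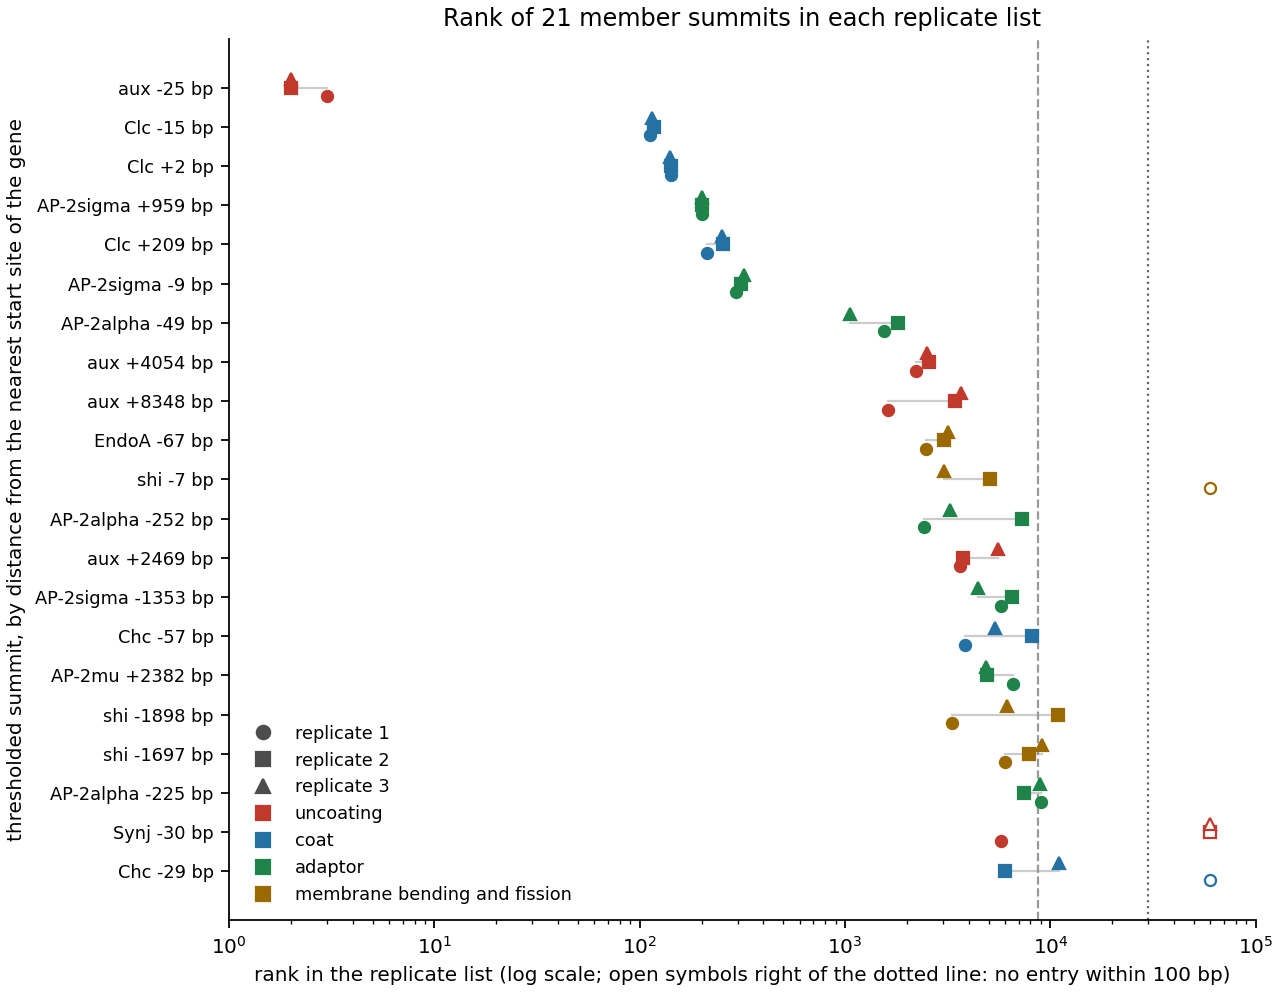
Ranks of the 21 member summits in the lists of replicates 1, 2 and 3 (log scale), with summits named by gene and by distance from the nearest own start site, and coloured by role. Open symbols mark a replicate with no entry within 100 bp, the dashed line stands at rank 8708 and the dotted line at the end of the lists.

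The motif matches differed from gene to gene. Exact matches were sought on both strands within 100 bp of each summit. The GAACCAG or GAACTAG motif matched at 3 of the 6 member summits with a signal of 2000 or more, which were 2 of Clc and the one at Rab1, and at 0 of the 15 weaker ones. It was present at 6.47% of all thresholded summits, at 71.5% of the 200 strongest and at 3.63% of windows around start sites of protein-coding genes. This motif was listed as the family found at the strongest summits, so nothing is read from its split by signal. The aux summit, although second in the list, had no such match. It had instead 3 ATCGAT matches, 1 of them within a full DRE (TATCGATA) 49 bp upstream of the summit, and 5 of CGATA. The DRE is the site of the factor DREF, and CGATA is the core recognised by BEAF-32. The DRE was at 7.54% of all summits, 11.5% of the 200 strongest and 6.43% of start sites. CGATA was at 37.7%, 50% and 37.2% of these, and ATCGAT, a motif added after the sequences were seen, was at 17.5%, 25% and 16.5%. CGATA matched at 12 of the 21 member summits.

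The same letters also stood before start sites with low or no signal. The shi promoter, shown above, had 6 CGATA and 2 ATCGAT matches within 100 bp of its first start site at a signal of 282, and lap had 2 of each with no summit. EndoA had a DRE 62 bp from its summit and an Ohler 1 match (GGTCACAC), which was also at AP-2alpha and at 6.28% of all summits. Chc had 9 GAGAG matches, partly overlapping, at its second start site and CGATA and ATCGAT matches at its first. GAGAG matched at 5 of the 21 member summits, and was at 23.6% of all summits and 24.9% of start sites. AP-2sigma had a CAGCTG match, an E-box, at the very summit, the only such match among the 21. CAGCTG was at 13.4% of all summits and 13.5% of start sites. The 8 letters AGCCCTGG, also added after the sequences were seen, matched at 4 of the 21 member summits, which were those of aux at the internal start site and at the intron nearer the distal one, of AP-2sigma and of Rab1. They were at 1.62% of all summits and 8.5% of the 200 strongest. A match is a description of the letters and not evidence that a factor was bound. The base composition varied as well, with 53.2% G and C in the window around the aux summit and 31.8% around that of Clc at its last start site, where the median of all summits was 38.3%.

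To place the 10 genes in the wider pathway, 46 other endocytosis genes were taken from a list that was also drawn up with earlier results known. Of these, 36 had a promoter summit, or 78.3%, against 42.9% of all protein-coding genes, and nothing is read from this count. Their median signal was 382.6 among those with one and 316.1 with the others counted as 0, beside 299.8 over the 10 members. A signal of 2000 or more, from whose count again nothing is read, was reached by 3 of the 46, against 2.72% of all protein-coding genes. These were Rabex-5, the exchange factor for Rab5, with 34905 (rank 36), and fwe, a synaptic vesicle protein, with 26274 (rank 71). The last was jar, myosin VI, with 3410 (rank 235). Rabex-5 ranked 29, 40 and 34 in the 3 replicates, and fwe ranked 67, 73 and 70. Both lay above the strongest Clc summit and below that of aux. The next were Rab5, the GTPase of early endosomes, with 789 and shared with Axud1, Rbsn-5 with 709 and shared with PAPLA1, and CG8176, the fly FCHo, with 684 and shared with Kdm3 and mRpL47.

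By role, all 6 kinases and phosphoinositide enzymes and both other uncoating chaperones had a promoter summit, where 42.9% of all protein-coding genes had one. The chaperones were Hsc70-4, the partner of auxilin, with 383 and Hsp110, an exchange factor for Hsc70, with 398. Both were thus far from the aux level of 64036. Early endosome and recycling genes had one in 10 of 11, membrane-bending and actin genes in 6 of 8, cargo adaptors and scaffolds in 7 of 11, and AP-1 and AP-3 adaptor genes in 5 of 8. Ack, AP-1gamma, Arf6 and g were among the 10 without one. No group had a signal of 2000 or more outside the early endosome and the membrane-bending and actin genes.

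**Figure D5:**
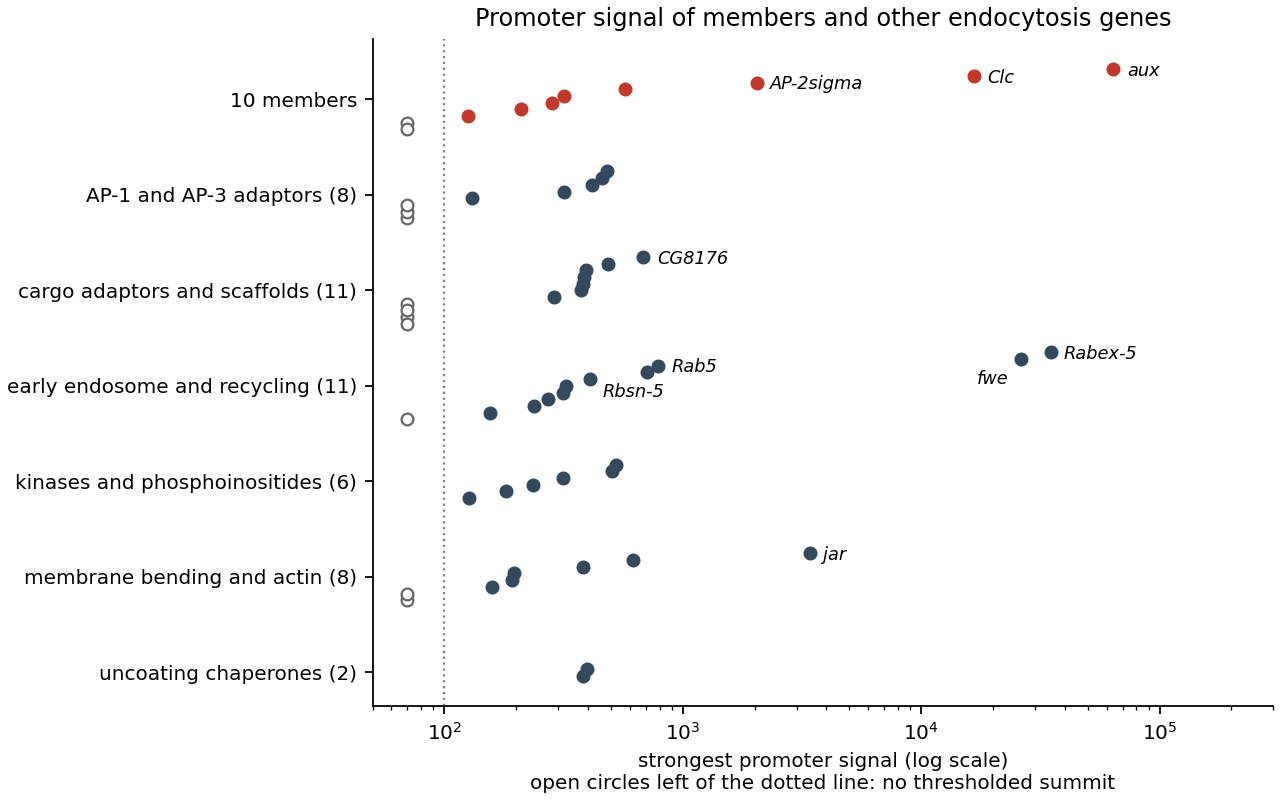
Strongest promoter signal (log scale) of each of the 10 members and of 46 other endocytosis genes by role, with the number of genes in brackets and 1 point per gene. Open circles mark genes with no thresholded summit within 500 bp of a start site, and aux at 64036 is the highest point, with Rabex-5 at 34905 next.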

How the data were processed

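Peak lists (narrowPeak) were deposited, and those on dm6 were used. Per the deposited descriptions, a replicate list came from the alignment of 1 replicate and 1 control alignment common to all. A pooled list came from the 3 replicates and the same control, and both kinds were the input of IDR, which keeps peaks of reproducible rank and gave the thresholded list. Every list before IDR holds 30000 entries. The signal is a value set by the authors' peak caller and deposited without a scale between lists. The −log10 q values deposited by the authors were not used for ranking. Fragments were 200 to 800 bp, per the labels. The names and settings of the aligner, peak caller and IDR were not given in the sources used here. The lists hold signals without read counts, so depth and the counting error of a signal are unknown.

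Entries were ranked by signal within each list. Gene models were those of Ensembl 115 (FlyBase release 6.54) on the Release 6 genome. A promoter summit lay within 500 bp of an annotated start site. A replicate match was the nearest entry within 100 bp. Motifs were sought as exact matches on both strands within 100 bp, and a distance to a motif is to its nearest base. No sequence from arm 2R is shown. Python 3.11.15 code was tested on simulated summits. The named genes were the 10 members, the 6 other endocytosis genes with the highest promoter signal, the first 4 in alphabetical order without one, all genes starting within 500 bp of a member summit, and the 4 peaks most like that of aux among the 1000 strongest. Genes named outside this rule (Polr1B, CycD, CG14636, CG3308, Hsc70-4 and Hsp110) were chosen after their values were seen. The members, lists and motifs were chosen with earlier results of these data known, so no test was made on them, and the spread is given over the 3 replicates.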

Additional observations from a re-analysis of the deposited data

How the results depend on the processing

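The number of members with a promoter summit was 8 with distances of 250 and 1000 bp and with a start site inside the interval, while the share of all protein-coding genes was 38.0%, 46.8% and 34.2%. It was 6 in the stronger 50% of the list (29.2% of all) and 9 in the pooled list (59.3%). To leave out 1 replicate, a summit had to have an entry within 100 bp among the 8708 strongest of each of the other 2. This gave 6 to 7 members (35.8% to 37.4% of all). The genes that dropped out were Synj in each case and shi without replicate 2 or 3. The count in the gene and 2 kb around it was 9 in the main setting, 4 with no margin (19.9% of all), 9 with 500 bp (49.8%) and 5000 bp (70.5%), 6 in the stronger 50% (43.5%), 9 in the pooled list (78.1%) and 8 without any 1 replicate (51.3% to 52.9%). The 4 genes with a summit in the body were AP-2alpha, Chc, Clc and aux. For the other endocytosis genes the count ran from 28 in the stronger 50% (29.2% of all) to 39 at 1000 bp (46.8%). It was 32 to 34 without 1 replicate (35.8% to 37.4%). Matching replicates within 50 or 200 bp, or by the interval, changed the number of summits matched in all 3 from 18 to 15, 19 and 19. The median relative signal of the 21 summits was 1.15, and by construction it became 0.246 when divided by the median of the 1000 strongest entries and 3.67 with that of all entries. Summits with at least 1 match, summed over the 7 preset motifs, came to 29 within 100 bp, 20 within 50 bp and 44 within 200 bp, since a wider window holds more letters. In the same order, the DRE matched at 2, 0 and 2 summits, CGATA at 12, 9 and 15, and GGTCACAC at 2, 1 and 2. GAACCAG or GAACTAG matched at 3, 3 and 4, CAGCTG at 1, 1 and 3, and GAGAG at 5, 5 and 11. TATAAA, the TATA box, matched at 4, 1 and 7, and was at 29.7% of all summits within 100 bp. The relative signals of all 20 summits found in more than 1 replicate moved by more than their replicate SD under both divisors. Of their median ranks, 3 moved by more than the SD when matched by the interval, and 0 with 50 or 200 bp. The depth of the libraries is unknown. With 1 group and no test made, no paired analysis was possible because the design has no second group.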
